A study of Homo sapiens with 6 samples.

Results

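The RNA levels of 29 genes of cholesterol synthesis, uptake and efflux were compared between cells carrying wild-type CTCF and cells carrying CTCF without its RNA-binding region (RBR). The genes were found by symbol among the 57820 genes of the deposited tables, 28 of them as written and IDI1 by its Ensembl identifier, because the tables print its symbol in an altered form. The set was chosen on the value of ABCA1, which was higher in the mutant cells, so the values of ABCA1 are given as a description without a test. The other 28 genes were taken as the rest of the pathway, with earlier results of these data known. The question asked was how the steps of the pathway compared between the 2 kinds of cells.

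The cells were SEM, a human leukemia line of the B-cell lineage. In the derivatives used here, both copies of the endogenous CTCF gene carry a miniAID-mClover3 tag, and the cells express OsTIR1(F74G) at all times, so that the tagged protein is degraded once the auxin analog 5-Ph-IAA is added. Total RNA was sequenced after ribosomal RNA removal from 3 libraries of cells with doxycycline-inducible HA-tagged wild-type CTCF (CTCF-WT) and 3 libraries of cells with inducible HA-tagged CTCF lacking the RBR (CTCF-dRBR). All 6 libraries came from cells kept in 5-Ph-IAA for 6 h before doxycycline (1 µg/mL) was added to the 5-Ph-IAA, and harvested after a further 18 h. No untreated cells were part of the comparison, the CTCF-WT labels name no transgene in the genotype field, and the sources used here do not say whether the libraries of a group came from separate cultures, so that p-values measure the spread between these libraries, which may be technical.

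Cells make cholesterol from acetyl-CoA through the mevalonate pathway, which ends in farnesyl diphosphate, and through the squalene and sterol steps that follow. When sterol in the endoplasmic reticulum is low, SCAP carries the SREBP transcription factors (encoded by SREBF1 and SREBF2) to the Golgi, where they are cleaved and released to turn on genes of synthesis and uptake. The INSIG proteins hold SCAP back when sterol is plentiful. Oxysterols activate the liver X receptors (LXR, encoded by NR1H2 and NR1H3), which turn on the efflux pumps ABCA1 and ABCG1 and MYLIP, a ubiquitin ligase that lowers lipoprotein receptor levels. Growing leukemic cells use both synthesis and uptake to build membranes.

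Total counts were 51732177 to 53166735 in CTCF-WT and 30034505 to 50457168 in CTCF-dRBR, and 3 counts, taken as the floor of detection, equalled 0.0564 to 0.0999 CPM (counts scaled to library size) in a library. By limma-voom with Benjamini-Hochberg adjustment, 0 of the 14044 genes tested passed an adjusted p of 0.05 (0%), and the smallest adjusted p was 0.0959. Before adjustment, 1768 genes were higher in CTCF-dRBR at p under 0.05 (12.6%) and 1801 were lower (12.8%). The libraries also differed by GC content, the share of G and C bases in a gene's exons. The Spearman correlation across genes between GC content and a library's deviation from the mean of all libraries was 0.709, 0.674 and 0.339 in CTCF-WT and −0.780, −0.417 and 0.504 in CTCF-dRBR, with the libraries in the order of their replicate numbers here and below. Genes are not independent replicates, and this is a description. CTCF-dRBR replicate 1, the smallest library, stood farthest from the others. Fits without it and after the GC trend was subtracted from each library are therefore given beside the main values of the members separated between the groups, and for all tested members in the plot of 4 fits. CTCF itself, for which counts of the endogenous and induced forms were not separated, was at 209.9, 211 and 249 CPM in CTCF-WT and 273, 264 and 252 CPM in CTCF-dRBR, without overlap (log2 fold change 0.24, SE 0.10, limma-voom adjusted p = 0.202). Of 8 markers of B-cell leukemia, 7 reached 1 CPM in a library (DNTT did not). Of 6 monocyte and macrophage markers, a cell type in which ABCA1 is well known, CSF1R and LYZ did so. MARCO was listed at 0 in every library. Over protein-coding genes, all 6 markers together summed to 11.9 to 14 TPM (counts scaled to gene length and library) in CTCF-WT. In CTCF-dRBR they summed to 10.3 to 13.3 TPM on the same scale. The 4 T-cell, 3 erythroid and 3 fibroblast markers were under 1 CPM in all libraries.

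Levels were compared between genes only per length, as TPM rescaled over protein-coding genes. In CTCF-WT the highest level was that of FDFT1, the first enzyme committed to sterols, at 502 ± 70.4 (SD, n = 3). FDPS followed at 312 ± 2.68, EBP at 260 ± 29.8, HMGCS1 at 218 ± 18 and IDI1 at 204 ± 15.2. The ranges of FDPS and EBP did not overlap, while HMGCS1 and IDI1 lay within an SD of each other. At the other end were NSDHL at 12.6 ± 1.62, INSIG2 at 8.79 ± 1.19 and ABCA1 at 0.176 ± 0.0320. The genes of synthesis thus covered a wide range of levels, and the efflux genes were the lowest of the set. In CTCF-dRBR, FDFT1 was again highest, at 611 ± 66.6, and ABCA1 was at 0.602 ± 0.109.

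**Figure D1:**
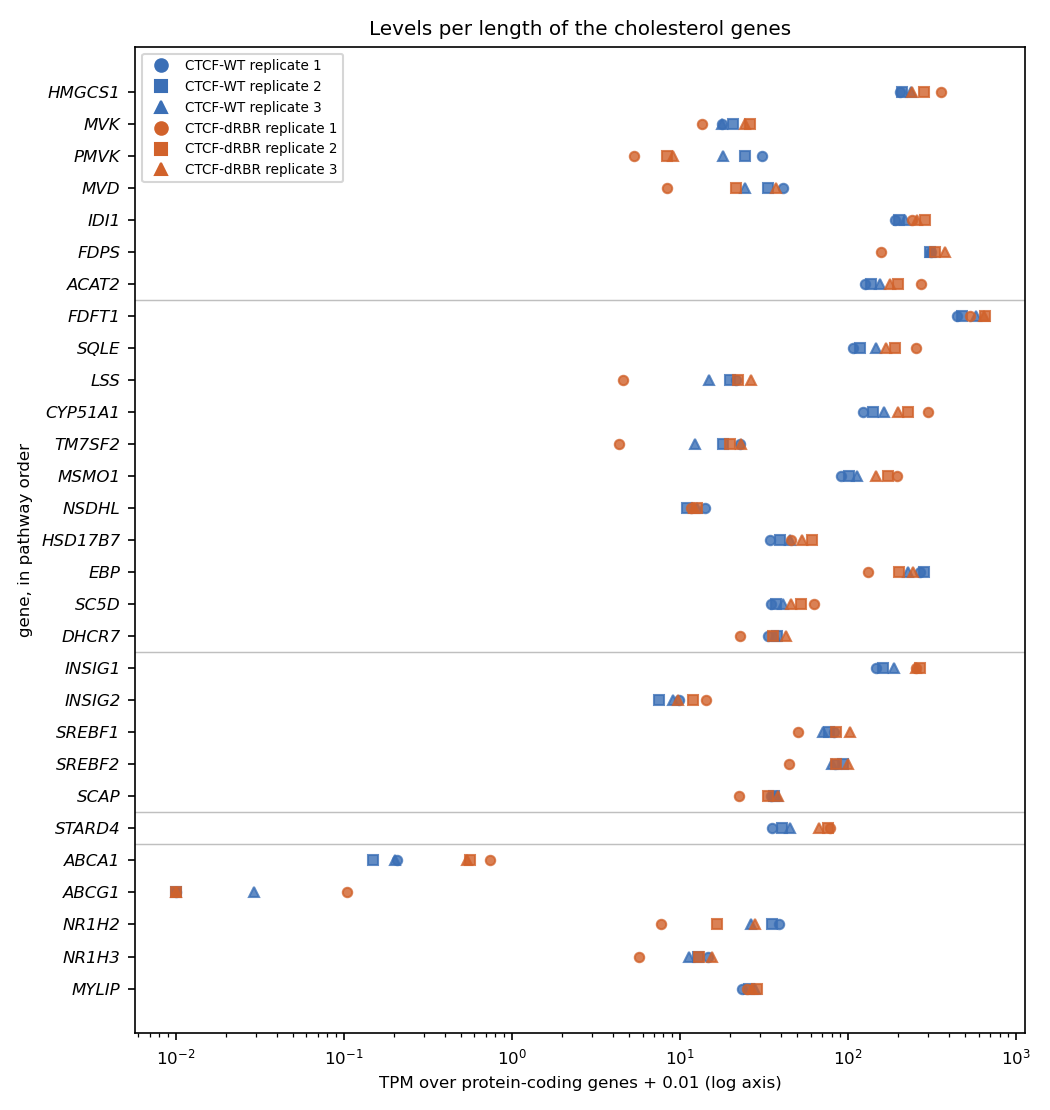
Level per length of each of the 29 genes in each of the 6 libraries, as TPM over protein-coding genes with 0.01 added, on a log axis; colors mark CTCF-WT and CTCF-dRBR and symbols mark the replicates. FDFT1 was the highest gene in both groups, and ABCA1 and ABCG1 were under 1 TPM in all libraries.

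ABCA1, the pump that passes cholesterol and phospholipid to apolipoprotein A-I, was low in these cells and was the member for which the set was chosen. It had 51, 49 and 66 counts in the CTCF-WT libraries, or 1.04, 0.954 and 1.25 CPM. In CTCF-dRBR it had 118, 177 and 164 counts, or 3.95, 3.43 and 3.18 CPM. All 3 mutant libraries were above all 3 wild-type libraries, and the mean was 3.26-fold higher (1.08 ± 0.15 against 3.52 ± 0.389 CPM, SD, n = 3). In bulk RNA, a larger share of cells with ABCA1 and more of it in each cell cannot be told apart. The fitted log2 fold change was 1.69 (SE 0.19). It was 1.61 (SE 0.19) without CTCF-dRBR replicate 1, 1.58 (SE 0.13) after the GC trend was removed and 1.54 (SE 0.13) with both changes. ABCA1 lies at chr9:107543287-107690436 on the minus strand (GRCh37), no other annotated gene overlapped its exons, and its exons held 45.4% G and C.

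ABCG1, which exports cholesterol to high-density lipoprotein, was at the limit of detection, with counts of 0, 0 and 1 in CTCF-WT and 2, 0 and 1 in CTCF-dRBR. Since no library reached 3 counts, no fold was given, and ABCG1 was the only one of the 29 genes that did not pass the filter of 1 CPM in any library. NR1H2, which encodes LXR beta, was at 38.4, 35.3 and 23.6 CPM in CTCF-WT and 6.62, 15.2 and 26.2 CPM in CTCF-dRBR. The groups overlapped, because CTCF-dRBR replicate 3 was above CTCF-WT replicate 3 (log2 fold change −1.14, SE 0.46, limma-voom adjusted p = 0.192). NR1H2 was at −0.67 without CTCF-dRBR replicate 1 and at −0.51 after removal of the GC trend, and the opposite-strand gene NAPSA overlaps its exons. NR1H3, which encodes LXR alpha, was at 7.83, 6.62 and 6.15 CPM in CTCF-WT and 3.61, 5.89 and 7.67 CPM in CTCF-dRBR (log2 fold change −0.29, SE 0.28, limma-voom adjusted p = 0.476). It turned to 0.14 when the GC trend was removed, and ACP2 overlaps it on the other strand. MYLIP was at 34.6, 37 and 38.8 CPM in CTCF-WT and 39.7, 37.8 and 36.3 CPM in CTCF-dRBR. For MYLIP the libraries of both groups were interleaved (log2 fold change 0.040, SE 0.10, limma-voom adjusted p = 0.792), and its sign turned with the GC trend removed (−0.0093). Apart from ABCA1, no tested LXR or efflux gene among the 29 was separated between the groups.

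The promoters of these genes were read for short motifs because LXR and SREBP act through known DNA elements. RefSeq windows from 250 bases before to 50 after a transcription start (GRCh38.p14) were held for 25 of the 29 genes, in 34 windows, since some genes have several starts, and for 27305 genes in all. ABCG1, ACAT2, FDFT1 and SQLE had no window. The LXR element was searched on both strands as AGGTNANNNNNGGTCA, a direct repeat of 6-base half-sites 4 bases apart in which the first base of the second half-site was left free. The fifth base of the first half-site was left free as well. Among the 25 genes the element was found in ABCA1 alone, against 0.121% of all genes. The half-sites of ABCA1 differ from each other only at the positions left free, so a strict repeat would not match there. Because ABCA1 is also the gene that chose the set, this match was no independent find, and a link to LXR was not tested. In ABCA1 the element is read on the opposite strand from the gene, so the capitals below mark its reverse complement, which starts 69 bases before the transcription start.
ABCA1, chr9:104928202-104928231, minus strand: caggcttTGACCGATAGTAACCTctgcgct

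A match is a description of the letters in this window, and nothing about binding was measured in these libraries.

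INSIG1, which holds SCAP in the endoplasmic reticulum and is itself a target of SREBP, was the most separated of the SREBP control genes. It was at 247, 264 and 293 CPM in CTCF-WT and 403, 402 and 378 CPM in CTCF-dRBR. The groups did not overlap, and the 3 mutant values differed little from each other. The mean was 1.47-fold higher (268 ± 23.5 against 394 ± 13.9 CPM, SD, n = 3), with a log2 fold change of 0.56 (SE 0.10) and a limma-voom adjusted p of 0.0959, the smallest of all genes tested and shared by many. Without CTCF-dRBR replicate 1 it passed the threshold at 0.54 (limma-voom adjusted p = 0.0463), and after removal of the GC trend at 0.41 (adjusted p = 0.0256). INSIG1 lies at chr7:155089486-155101945 on the plus strand (GRCh37), with no overlapping exon of another gene.

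INSIG2, the paralog of INSIG1, was at 13.6, 10.5 and 12.7 CPM in CTCF-WT and 19.1, 13.8 and 11.3 CPM in CTCF-dRBR, with overlap (log2 fold change 0.22, SE 0.22, limma-voom adjusted p = 0.501). SREBF1 was at 76.7, 70.1 and 53.9 CPM in CTCF-WT and 24.5, 53.2 and 80.8 CPM in CTCF-dRBR. The highest and the lowest value of SREBF1 were both from CTCF-dRBR libraries (log2 fold change −0.42, SE 0.40, limma-voom adjusted p = 0.472). SREBF2 was at 202, 203 and 164 CPM in CTCF-WT and 91.6, 152 and 199 CPM in CTCF-dRBR (log2 fold change −0.41, SE 0.28, limma-voom adjusted p = 0.334). SCAP was at 64.4, 64.6 and 54.8 CPM in CTCF-WT and 18.1, 41.0 and 57.8 CPM in CTCF-dRBR (log2 fold change −0.73, SE 0.37, limma-voom adjusted p = 0.240). In SREBF1, SREBF2 and SCAP alike, CTCF-dRBR replicate 1 was the lowest library and CTCF-dRBR replicate 3 lay within or above the CTCF-WT range. With the GC trend removed SREBF1 was at 0.29 and SREBF2 at 0.10, both on the other side of 0, and SCAP was at −0.14. RAI1 on the other strand overlaps exons of SREBF1, and SREBF2-AS1 those of SREBF2.

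STARD4, a soluble protein that carries cholesterol between membranes and is a target of SREBP2, was at 70.6, 79.8 and 83.4 CPM in CTCF-WT and 155, 139 and 120 CPM in CTCF-dRBR. The groups did not overlap, and the mean was 1.77-fold higher in the mutant (77.9 ± 6.62 against 138 ± 17.5 CPM, SD, n = 3). Its log2 fold change of 0.82 (SE 0.13) was the largest positive value after that of ABCA1 among the 28 genes tested (limma-voom adjusted p = 0.0959). It passed the threshold without CTCF-dRBR replicate 1 at 0.73 (limma-voom adjusted p = 0.0407), and after removal of the GC trend at 0.41 (adjusted p = 0.0463). STARD4 has the lowest GC content of the set, 34.6%. Genes between 32.5% and 35% GC had a median log2 fold change of 0.41 and a 90th percentile of 0.74 over 173 genes, so STARD4 lay above that percentile. STARD4-AS1 overlaps it on the other strand.

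**Figure D2:**
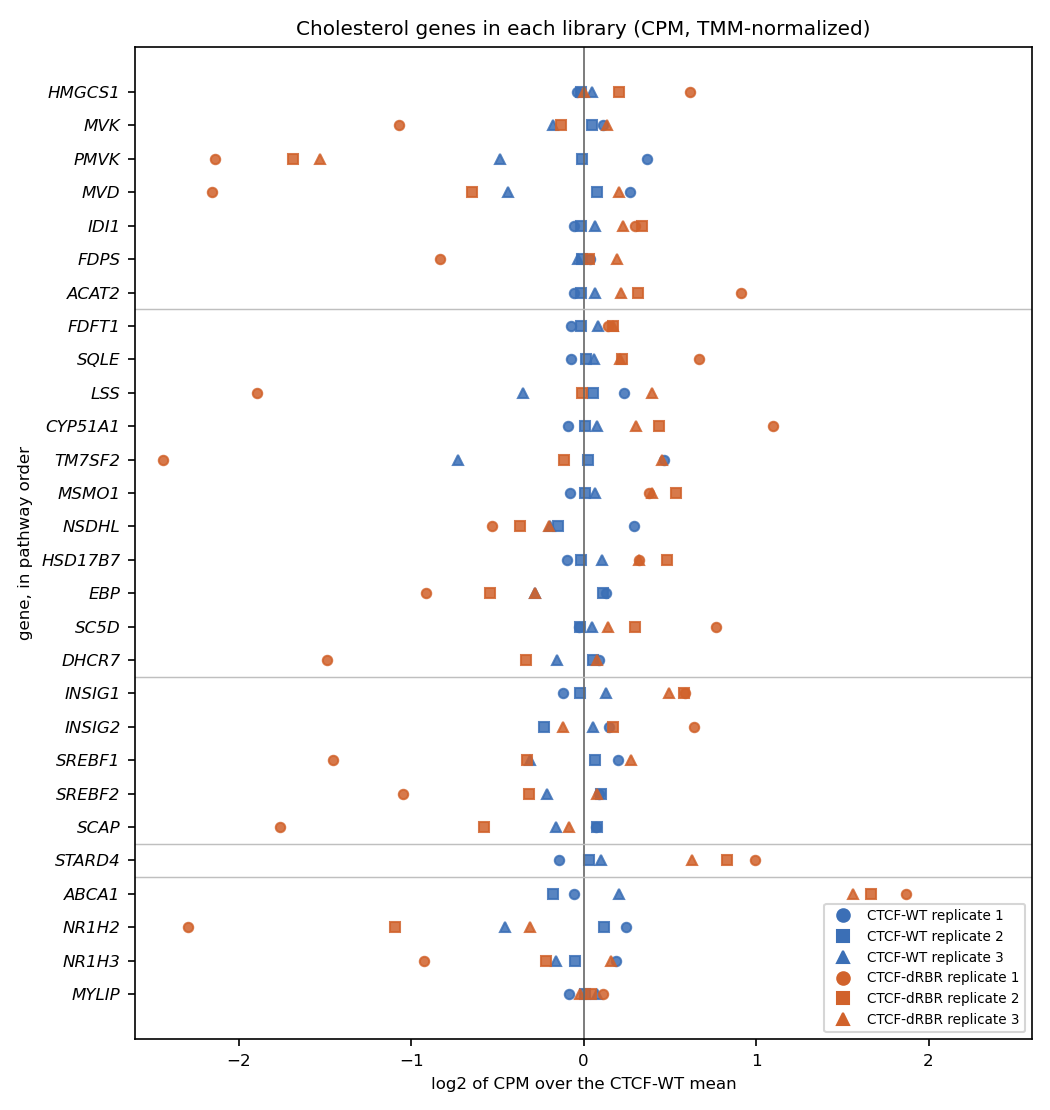
CPM of each of the 28 tested genes in each library, as log2 of its ratio to the CTCF-WT mean, with colors for CTCF-WT and CTCF-dRBR and symbols for the replicates. ABCA1, whose value chose the set, lay to the right of all CTCF-WT points in every CTCF-dRBR library. Apart from it 10 genes did so, among them INSIG1 and STARD4 (20.0% of all genes did). PMVK and NSDHL lay to the left (17.5% of all genes). CTCF-dRBR replicate 1 was the far point for many genes.

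In the mevalonate pathway, 3 of 7 genes had a positive and 4 a negative fold change, and none passed the threshold. PMVK, the kinase that turns phosphomevalonate into its diphosphate, was the gene farthest below 0 in the whole set. It was at 23.9, 18.5 and 13.2 CPM in CTCF-WT and 4.21, 5.78 and 6.42 CPM in CTCF-dRBR. The mutant values were all under the lowest CTCF-WT value (18.6 ± 5.35 against 5.47 ± 1.14 CPM, SD, n = 3), with a log2 fold change of −1.72 (SE 0.28, limma-voom adjusted p = 0.0959). PMVK passed the threshold at −1.56 without CTCF-dRBR replicate 1 (limma-voom adjusted p = 0.0426), at −1.12 after removal of the GC trend (adjusted p = 0.0275) and at −1.28 with both changes (adjusted p = 0.0083). Its exons hold 59.0% G and C. The 10th percentile of the 906 genes between 57.5% and 60% GC was −1.03, above the value of PMVK. PMVK lies at chr1:154897216-154909195 on the minus strand (GRCh37), with no overlapping exon of another gene.

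IDI1, the isomerase that makes dimethylallyl diphosphate, was at 233, 240 and 253 CPM in CTCF-WT and 297, 306 and 284 CPM in CTCF-dRBR (log2 fold change 0.29, SE 0.084, limma-voom adjusted p = 0.147). ACAT2, a cytosolic thiolase that makes acetoacetyl-CoA, was at 155, 159 and 168 CPM in CTCF-WT and 302, 199 and 186 CPM in CTCF-dRBR (log2 fold change 0.48, SE 0.19, limma-voom adjusted p = 0.19). Both genes were without overlap, and for ACAT2 the distance was largest in CTCF-dRBR replicate 1. Without that library IDI1 was at 0.28 and ACAT2 at 0.26, and with the GC trend removed they were at 0.090 and 0.39. TCP1 overlaps exons of ACAT2 on the other strand. FDPS, which makes farnesyl diphosphate, was at 173, 168 and 165 CPM in CTCF-WT and 94.7, 172 and 193 CPM in CTCF-dRBR, where only CTCF-dRBR replicate 1 was below the CTCF-WT range (log2 fold change −0.19, SE 0.26, limma-voom adjusted p = 0.612). The groups of HMGCS1, MVK and MVD, which encode the synthase of HMG-CoA, mevalonate kinase and the decarboxylase of mevalonate diphosphate, overlapped as well. Their log2 fold changes were 0.27, −0.30 and −0.76, and CTCF-dRBR replicate 1 was the highest library for HMGCS1 and the lowest for MVK and MVD. With the GC trend removed they were at 0.00071, 0.12 and 0.027.

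Of the 11 genes of the squalene and sterol steps, 6 had a positive and 5 a negative fold change, none past the threshold. MSMO1, the methyl sterol oxidase, was at 120, 128 and 133 CPM in CTCF-WT and 165, 184 and 167 CPM in CTCF-dRBR. It was without overlap and 1.36-fold higher by the means (127 ± 6.31 against 172 ± 10.3 CPM, SD, n = 3), with a log2 fold change of 0.44 (SE 0.092, limma-voom adjusted p = 0.109). MSMO1 passed the threshold without CTCF-dRBR replicate 1 (0.46, limma-voom adjusted p = 0.0478), but with the GC trend removed it was at 0.14 (adjusted p = 0.546). HSD17B7, a reductase of the sterol C3 ketone, was at 27, 28.6 and 31.1 CPM in CTCF-WT and 36.1, 40.4 and 36.1 CPM in CTCF-dRBR, without overlap (log2 fold change 0.38, SE 0.11, limma-voom adjusted p = 0.148). In these 2 genes CTCF-dRBR replicate 1 was close to the other CTCF-dRBR libraries. HSD17B7 was at 0.40 without it and at 0.14 with the GC trend removed. Counts of HSD17B7, CYP51A1 and LSS were whole numbers in no library, so their reads were in part shared with other genes by RSEM.

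CYP51A1, the lanosterol demethylase, was at 243, 261 and 274 CPM in CTCF-WT and 554, 351 and 320 CPM in CTCF-dRBR (log2 fold change 0.61, SE 0.21, limma-voom adjusted p = 0.165). SQLE, the squalene epoxidase, was at 191, 203 and 210 CPM in CTCF-WT and 321, 235 and 233 CPM in CTCF-dRBR (log2 fold change 0.37, SE 0.14, limma-voom adjusted p = 0.187). SC5D, which introduces the C5 double bond of the sterol ring, was at 42.8, 43.1 and 45.1 CPM in CTCF-WT and 74.4, 53.8 and 48.1 CPM in CTCF-dRBR (log2 fold change 0.38, SE 0.17, limma-voom adjusted p = 0.210). These 3 genes shared a pattern in which the groups did not overlap and CTCF-dRBR replicate 1 was far above the other 2 CTCF-dRBR libraries. Without that library they were at 0.37, 0.21 and 0.22, and with the GC trend removed at 0.35, 0.14 and 0.052. AKAP9 overlaps exons of CYP51A1 on the other strand, and 2 genes without a symbol overlap them on the same strand, as 1 does for EBP and VPS51 does for TM7SF2. FDFT1, the squalene synthase, was at 460, 479 and 515 CPM in CTCF-WT and 536, 546 and 545 CPM in CTCF-dRBR, without overlap and with a log2 fold change of 0.16 (SE 0.084, limma-voom adjusted p = 0.240), at 0.17 without CTCF-dRBR replicate 1 and at 0.30 with the GC trend removed. NSDHL, a dehydrogenase that removes the C4 carboxyl group, was at 16.0, 11.8 and 11.4 CPM in CTCF-WT and 9.03, 10.1 and 11.4 CPM in CTCF-dRBR (log2 fold change −0.34, SE 0.19, limma-voom adjusted p = 0.261). The nearest libraries of NSDHL differed only in the fourth digit, and in TPM over protein-coding genes its groups overlapped. It was at −0.27 without CTCF-dRBR replicate 1 and at −0.20 with the GC trend removed. LSS closes the ring of lanosterol. In the sterols that follow, TM7SF2 reduces the C14 double bond, EBP shifts the C8 double bond and DHCR7 reduces the C7 double bond. LSS, TM7SF2, EBP and DHCR7 had negative fold changes from −0.36 to −0.55 with overlapping groups and limma-voom adjusted p from 0.168 to 0.637. EBP was at −0.24 and DHCR7 at −0.073 with the GC trend removed, and LSS and TM7SF2 turned to 0.062 and 0.25.

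As a set, the 27 tested genes other than ABCA1 did not move in 1 direction. Their fold changes were positive for 13 genes and negative for 14, with a median of −0.19 against −0.0076 over all genes. At an unadjusted p under 0.05, 8 of the 27 were higher (IDI1, SQLE, CYP51A1, MSMO1, HSD17B7, INSIG1, ACAT2 and STARD4) and 3 lower (PMVK, EBP and NR1H2), against the 12.6% and 12.8% of all genes given above. By edgeR's quasi-likelihood test 0 passed the adjusted threshold, with 9 higher and 2 lower at an unadjusted p under 0.05 (13.7% and 11.0% of all genes in that fit). The CPM of 10 genes lay higher in CTCF-dRBR without overlap (20.0% of all genes did) and those of 2 lay lower (17.5% of all genes). For 15 genes the groups overlapped. In TPM over protein-coding genes the exact permutation test can give no p under 0.1 with 3 libraries against 3. On that scale the groups of HMGCS1 did not overlap either, and those of FDFT1 and NSDHL did. By limma-trend on log2(TPM + 1) of the deposited values, 23 of the 27 were positive and 4 negative, with a median of 0.49 against 0.40 for all genes tested.

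The direction of a gene followed its GC content. A split at 50% GC was chosen after the values were seen. Of the 27 genes other than ABCA1, 12 were at or under 50%, and all 12 had a positive fold change, with a median of 0.38. Of these 12, 9 were higher without overlap (75%), against 30.8% of all genes at or under 50% GC. Of the 15 over 50%, 14 had a negative fold change, with a median of −0.42, and the exception was FDFT1 at 50.5% GC. Of these 15, 2 were lower without overlap (13.3%), against 28.7% of all genes over 50% GC. Over all genes the same split gave 5928 positive of 8274 with a median of 0.18, and 832 positive of 5380 with a median of −0.46. The members' signs therefore lay on the same side as most genes of like GC content, and the part of GC content in the single differences was not tested beyond the subtraction of the trend. After that subtraction 19 of the 27 genes were positive and 8 negative, with a median of 0.10 against −0.0099 for all genes. STARD4, PMVK and NR1H2 (−0.51, limma-voom adjusted p = 0.103) stayed outside the 10th to 90th percentile of genes of like GC content. INSIG1, at 0.41, was inside that range (90th percentile 0.43 between 42.5% and 45% GC). By definition the range leaves out all genes under the 10th or over the 90th percentile, so some genes of any list can lie outside it.

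**Figure D3:**
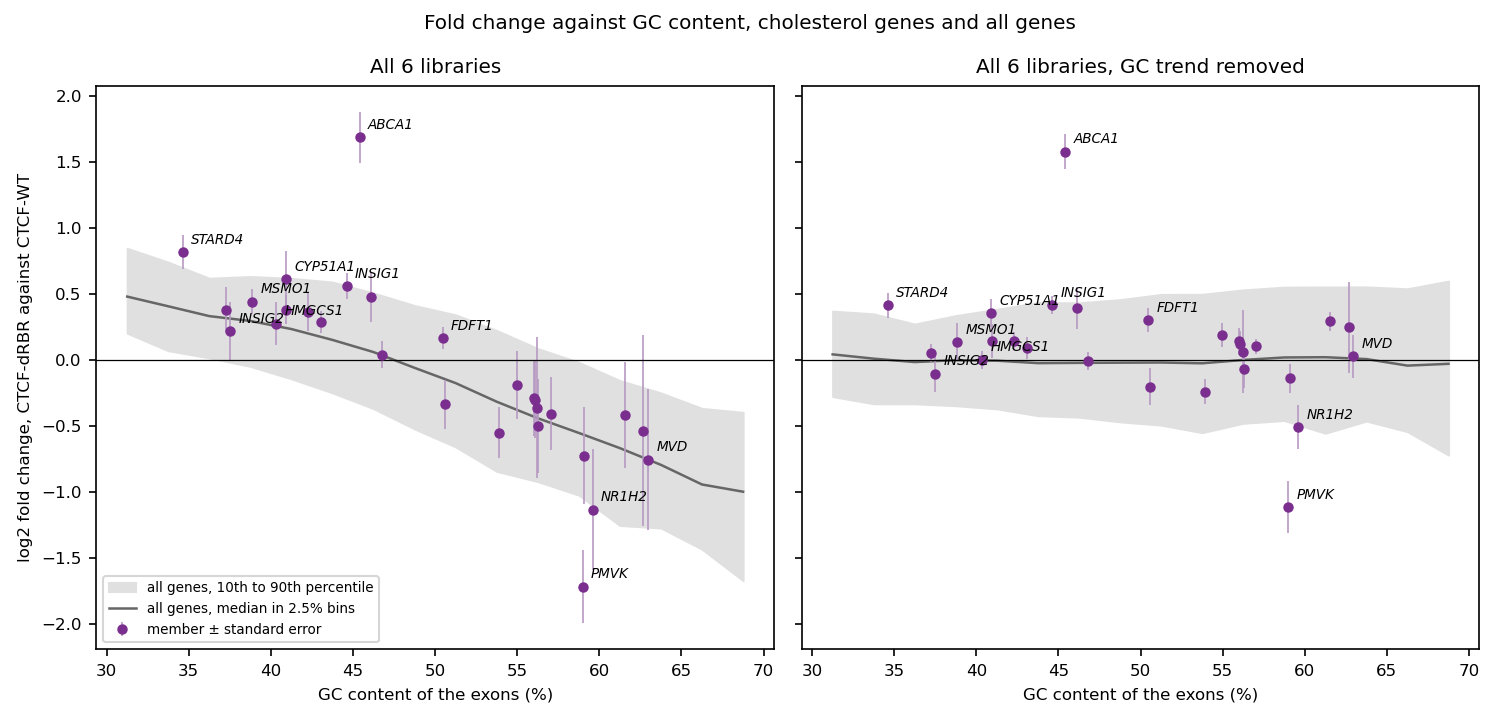
Log2 fold change (CTCF-dRBR against CTCF-WT) of the 28 tested genes with its standard error, against the GC content of their exons in percent, before (left) and after (right) the GC trend was subtracted; the line is the median of all genes and the band spans their 10th to 90th percentile in bins of 2.5% GC. The median of all genes declined from 0.48 to −1.0 across the left panel, most members followed it, PMVK at −1.72 lay outside the band in both panels, and ABCA1 at 1.69 is the member whose value chose the set.

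Leaving out CTCF-dRBR replicate 1 brought 4 of the 27 genes past the adjusted threshold: STARD4, INSIG1 and MSMO1 higher, against 1.52% of all genes, and PMVK lower, against 2.37%. Removing the GC trend over all 6 libraries left STARD4 and INSIG1 higher (3.97% of all genes) and PMVK lower (5.27%). With both changes 10 genes were higher, against 10.3% of all genes: IDI1, FDPS, LSS, CYP51A1, MSMO1, HSD17B7, INSIG1, SREBF1, ACAT2 and STARD4. PMVK was the only one lower, against 13.3%. By DESeq2 on all 6 libraries IDI1, MSMO1, HSD17B7, INSIG1 and STARD4 were higher (5.38% of all genes) and PMVK lower (6.14%). INSIG1, STARD4 and PMVK passed in all 4 of these fits and had the same direction in each of them, and MSMO1 passed in 3.

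**Figure D4:**
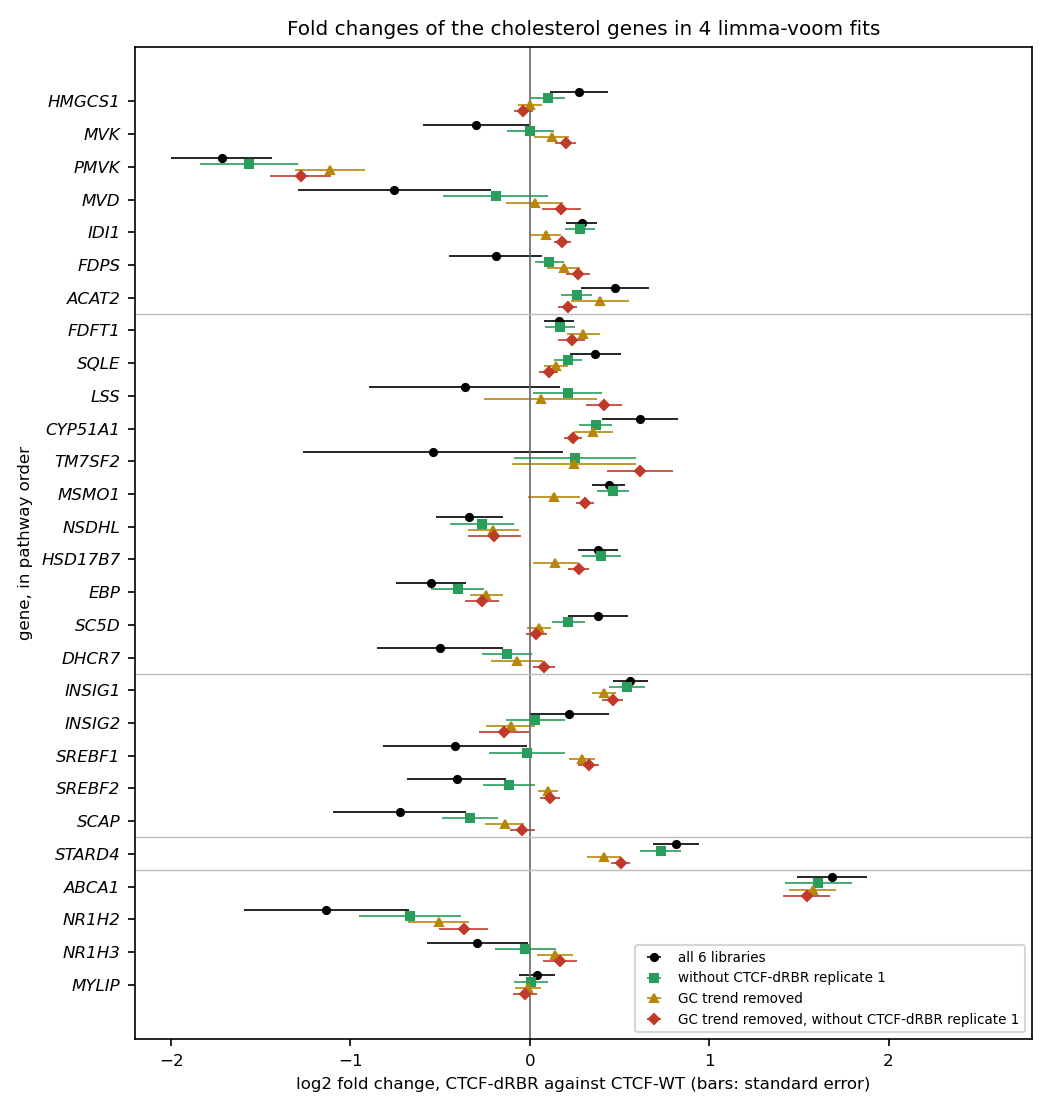
Log2 fold change (CTCF-dRBR against CTCF-WT) with its standard error for the 28 tested genes in 4 limma-voom fits: all 6 libraries, without CTCF-dRBR replicate 1, with the GC trend removed, and with both changes. INSIG1, STARD4 and ABCA1 lay to the right of 0 in all 4, as did IDI1, ACAT2, FDFT1, SQLE, CYP51A1, MSMO1, HSD17B7 and SC5D. PMVK lay to the left in all 4, as did NSDHL, EBP, SCAP and NR1H2. SREBF1, SREBF2, LSS and TM7SF2 were among the genes that changed sides.

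Around these 29 genes, 63 others of sterol and lipid metabolism were followed, of which 57 were tested. None passed the adjusted threshold by limma-voom or edgeR. There were 29 positive and 28 negative fold changes with a median of 0.010, and 10 were higher and 7 lower at an unadjusted p under 0.05, where 12.6% and 12.8% of all genes were. Among 11 other sterol enzymes and regulators, RNF139, a ubiquitin ligase of the endoplasmic reticulum, was highest at 0.45. Among 11 genes of the isoprenoid branch, which leads from farnesyl diphosphate to prenyl groups, dolichol and ubiquinone, the extremes were GGPS1 at 0.28 and RABGGTA at −0.79. Among 12 genes of fatty acid synthesis driven by SREBP, ACSL3, an acyl-CoA synthetase, was at 0.48 and FASN, the fatty acid synthase, at −0.88. Other genes passed the adjusted threshold in the 4 alternative fits named above and were chosen after their values were seen. NUS1, a subunit of the enzyme that makes dolichol, was lower in all 4, at 51.1, 50.4 and 48.4 CPM in CTCF-WT and 39.2, 29.7 and 27.2 CPM in CTCF-dRBR (log2 fold change −0.68, SE 0.15, limma-voom adjusted p = 0.112). ACLY, which makes cytosolic acetyl-CoA, was lower in 3 (−0.44), OSBP, an oxysterol-binding protein, in 3 (−0.34), and ACACA, the acetyl-CoA carboxylase, in 2 (−0.44), where the values are those of the fit to all 6 libraries. ACACA had no GC content here and was not in the fits with the GC trend removed. VLDLR was higher in 3 of the 4 fits, and LPIN1, a phosphatidate phosphatase, in 2 (0.32). RXRA (0.15) and NPC2 (0.39) were also higher in 2, and PDSS2 (−0.19) and NCOR1 (−0.18) lower in 2. The other calls were of genes in 1 fit.

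The 14 genes of sterol uptake, storage and transport had VLDLR, a lipoprotein receptor, at the top. It was at 65.7, 69.2 and 73.0 CPM in CTCF-WT and 112, 99.1 and 88.4 CPM in CTCF-dRBR, without overlap (log2 fold change 0.52, SE 0.12, limma-voom adjusted p = 0.116). STARD3, a cholesterol carrier of late endosomes, was lowest at −0.87. Of 10 other partners and targets of LXR, 9 were tested, from RXRB, a partner of LXR on DNA, at −0.81 to SMPDL3A, a phosphodiesterase induced by LXR, at 0.63. SMPDL3A was at 4.16, 4.58 and 5.21 CPM in CTCF-WT and 9.93, 6.69 and 5.78 CPM in CTCF-dRBR, with CTCF-dRBR replicate 1 far above the rest (limma-voom adjusted p = 0.180). SMPDL3A and NCOA1 were higher without overlap (22.2% of the 9, against 20.0% of all genes). LPCAT3 and PLTP were lower without overlap (22.2%, against 17.5%). PLTP was at 6.24, 6.88 and 5.62 CPM in CTCF-WT and 2.41, 3.93 and 5.03 CPM in CTCF-dRBR (log2 fold change −0.74, limma-voom adjusted p = 0.177). In the group of LXR targets and partners, 3 of 9 fold changes were positive and the median was −0.38, but with the GC trend removed 5 were positive and the median was 0.13. The 5 enzymes that make or modify oxysterols (CH25H, CYP27A1, CYP7B1, HSD3B7 and SULT2B1) were under 1 CPM in every library.

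The windows of all 25 genes, LXR genes included, were also read for the SREBP element TCACNCCAC on both strands. The box CCAAT of NF-Y, a factor that works beside SREBP at many sterol genes, was searched in the same way. The SREBP element was found in SREBF2 alone among the 25 genes, against 1.39% of all genes, and there it starts 133 bases before the start. Sites with other letters or outside the windows were not searched for, so a gene without a match may still hold one. The NF-Y box was found in 18 of 25 genes (72%) against 39.7% of all genes, and genes with more than 1 window had more chances to hold it. It was present in genes on both sides of 0, among them STARD4, INSIG1, MSMO1, MVD and EBP, and absent from the window of PMVK. The CTCF core CCANNAGNG was found in 7 of 25 genes (28%) against 21.0%. ABCA1, INSIG1, STARD4 and PMVK were not among the 7. The windows below show the SREBP element of SREBF2 and the NF-Y boxes of INSIG1 and STARD4, with the motif in capitals and the gene's own strand read 5′ to 3′. INSIG1 and STARD4 were the genes higher past the adjusted threshold in all 4 alternative fits named above. In INSIG1 the capitals are the reverse complement of the box.
SREBF2, chr22:41832962-41832991, plus strand: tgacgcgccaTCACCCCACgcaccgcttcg
STARD4, chr5:111512679-111512708, minus strand: atttatcggccaCCAATcagccctccacac
STARD4, chr5:111512648-111512677, minus strand: ctcccgcgccagCCAATccgaacaagcgca
INSIG1, chr7:155297696-155297725, plus strand: cgccggcctcccATTGGttgcggccgcctc

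The boxes of STARD4 start 161 and 130 bases before the start and that of INSIG1 170 bases before it.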

How the data were processed

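RNA-seq of total RNA was analyzed, with 3 libraries of CTCF-WT and 3 of CTCF-dRBR. The authors trimmed reads with Trim Galore (0.6.3), aligned them to hg19 with STAR (2.7.9a) and quantified Gencode genes with RSEM (1.3.1). The methods call the reads paired-end, the labels single-end. The deposited counts and TPM are labeled as stranded, but the strand setting of the counting is not given in the sources used here. The deposited expected counts are estimates of reads per gene, not normalized. The deposited TPM were scaled by the authors over all genes, of which protein-coding genes held 30.2% to 63.2%, and were rescaled here over protein-coding genes. The 92 spike-in rows held 0 counts and were left out.

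Genes that did not reach 1 CPM in any library were dropped. Counts were normalized by TMM (edgeR 4.0.16) and compared by limma-voom (limma 3.58.1, R 4.3.3) without covariates, two-sided, with Benjamini-Hochberg adjustment over all genes tested and a threshold of 0.05. The members and lists were chosen with earlier results of these data known. Values in every library are given for ABCA1, for members without overlap, for regulators and LXR genes and for the extremes of each role, and other lists are named by their extremes, of which 1 is not reported here. GC content came from Gencode genes lifted to GRCh37 (97.2% of genes tested), and its trend in each library was fitted by loess (span 0.5, degree 2) on log2 CPM with a prior count of 1 and subtracted. Alternatives were edgeR's quasi-likelihood test and DESeq2 (1.42.0) on rounded counts, voomWithQualityWeights, limma-trend on TPM, other normalizations and filters, a replicate block, and leaving out each library. The fits were tested on simulated counts. Figures were drawn with matplotlib (3.10.9).

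Same-numbered libraries did not deviate together (correlations −0.341, 0.0993 and −0.471), so the numbers were not taken as pairs.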

Additional observations from a re-analysis of the deposited data

How the results depend on the processing

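ABCG1 was under the floor of 3 counts, and leaving out CTCF-dRBR replicate 1 or removing the GC trend moved many members. RLE factors, library size alone, a filter of 1 CPM in 3 libraries and protein-coding genes alone called 0 genes past FDR 0.05. So did edgeR's quasi-likelihood test. These settings turned no sign among the 28 tested members and the named extremes of the other lists. With library size alone, 33 of the 57 other pathway genes were positive, against 29 in the main fit. Calls are given over all genes, members other than ABCA1 and the other pathway genes. By DESeq2 they were 1619 of 14044, 6 of 27 and 6 of 57. By voomWithQualityWeights they were 9583 of 14044, 20 of 27 and 38 of 57, so most genes of any kind were called. With the GC trend removed they were 1261 of 13654, 3 of 27 and 6 of 56. With the trend removed and without CTCF-dRBR replicate 1 they were 3151 of 13360, 11 of 27 and 19 of 56. limma-trend on log2(TPM + 1) called 833 of 14044 genes and 1 of 27 members, STARD4, and on log2(TPM + 0.1) 760 and 1. All genes shifted by a median of 0.40 and 0.54. Leaving out 1 library gave 0 to 535 calls over all genes, 0 to 4 over members and 0 to 4 over other pathway genes. Every call came without CTCF-dRBR replicate 1, where 13731 genes, 27 members other than ABCA1 and 57 other pathway genes were tested. The median of the 28 tested members, ABCA1 included (−0.075), moved to 0.47 and 0.56 on the TPM scales, 0.11 with the GC trend removed, 0.18 with that and without CTCF-dRBR replicate 1, and −0.16 to 0.10 over the libraries left out. ABCA1 was at 0.31 on log2(TPM + 1), where the pseudocount exceeds its level, and at 1.31 on log2(TPM + 0.1).

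Among the tested members and the named extremes of the other lists, signs turned as follows, and the cause was not tested. With the GC trend removed, MVK was at 0.12, MVD 0.027, FDPS 0.19, LSS 0.062, TM7SF2 0.25, INSIG2 −0.11, SREBF1 0.29, SREBF2 0.10, NR1H3 0.14 and MYLIP −0.0093. With that and without CTCF-dRBR replicate 1, HMGCS1 was at −0.036, MVK 0.20, MVD 0.18, FDPS 0.27, LSS 0.42, TM7SF2 0.61, DHCR7 0.078, INSIG2 −0.14, SREBF1 0.33, SREBF2 0.11, NR1H3 0.17, MYLIP −0.027, RABGGTA 0.29 and FASN 0.022. On log2(TPM + 1), MVK was at 0.53, FDPS 0.26, LSS 0.093, TM7SF2 0.051, NSDHL 0.35, DHCR7 0.31, SREBF1 0.45, SREBF2 0.21, SCAP 0.20, NR1H3 0.15 and RABGGTA 0.019. On log2(TPM + 0.1), MVK was at 0.59, FDPS 0.26, LSS 0.067, TM7SF2 0.021, NSDHL 0.41, DHCR7 0.33, SREBF1 0.46, SREBF2 0.22, SCAP 0.22, NR1H3 0.17 and RABGGTA 0.00080. FDPS was at 0.031 by voomWithQualityWeights, and MYLIP at −0.040 without a filter. Over the libraries left out, MVK ran from −0.55 to 0.0028, FDPS from −0.39 to 0.11, LSS from −0.81 to 0.21 and TM7SF2 from −1.09 to 0.25, each positive only without CTCF-dRBR replicate 1, and MYLIP from −0.013 to 0.079, negative only without CTCF-WT replicate 1.

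With the replicate number as a block, 0 genes were called, with 1423 at an unadjusted p under 0.05 in place of 3569, and no member changed its call. With the block and the GC trend removed, 0 genes were called, the members' median was 0.12, and MVK was at 0.12, MVD 0.050, FDPS 0.19, LSS 0.11, TM7SF2 0.29, INSIG2 −0.10, SREBF1 0.29, SREBF2 0.10, NR1H3 0.14 and MYLIP −0.010.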
